A study of Mus musculus with 12 samples.

Results

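The growth hormone and IGF axis was followed here through 9 genes: Igf1, Igfals, Ghr, Socs2, Cish, Igfbp2, Igfbp3, Igf1r and Stat5b. They were chosen by gene symbol for their role in the axis, and all 9 were found among the 55450 genes of the count table. Total RNA had been sequenced from brain and liver of male Mus musculus aged 7 to 9 weeks. Brain and liver each had 3 libraries from wild-type mice (Vaultrc5+/+, called flx in the library titles) and 3 from mice that lack both copies of Vaultrc5, whose product is a short vault RNA that codes for no protein (Vaultrc5-/-), which gave 4 groups and 12 libraries. The labels name no strain, no treatment and no Cre driver, and they do not say what flx stands for or whether the wild-type mice carry an engineered allele. The title of the series names mouse development without Vaultrc5 as its subject, and growth in the mouse depends on this axis.

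As background, growth hormone from the pituitary binds its receptor GHR on hepatocytes, and the receptor-bound kinase JAK2 activates the transcription factor STAT5B. STAT5B drives Igf1, Igfals, Socs2 and Cish, and the SOCS2 and CISH proteins in turn dampen the signal. IGF1 leaves the liver bound to IGFBP3 and to the acid-labile subunit encoded by Igfals, while IGFBP2 carries it in smaller complexes. IGF1 acts on target cells through the receptor tyrosine kinase IGF1R, which hepatocytes are known to hold at low levels. In male rodents growth hormone reaches the liver in pulses.

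The knockout libraries held no Vaultrc5 counts in either tissue, against 33, 39 and 48 counts in the wild-type livers and 4, 1 and 4 counts in the wild-type brains. In brain this rests on few counts: 1 wild-type library lies below the 3 counts that a count of 0 allows. The brain libraries summed to between 14844971 and 18567381 expected counts, and the liver libraries to between 23247449 and 27155480. The summed level of 5 hepatocyte markers lay between 39083 and 66315 CPM (counts per library scaled to a common size) in liver and between 0.116 and 2.40 CPM in brain, and that of 4 neuron markers was 19.3 to 26.2 CPM in liver, so the libraries matched their labelled tissues. Nothing in the labels says that same-group libraries came from separate mice, so p-values measure the spread between these libraries.

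STAT5 proteins are known to bind a short palindromic motif, and the sequence around it is shown for Cish and Igfals, the members whose promoter windows held it. The motif searched was TTCNNNGAA, which reads the same on both strands, in windows of 300 bases (250 before and 50 after the annotated start site; RefSeq, GRCm38.p6). RefSeq windows were found for 8 of the 9 members, and Socs2 had none. The motif was in 3 of the 13 windows of those members, which belong to 2 of the 8 genes, against 8.30% of all 32851 windows. The matches are printed 5′ to 3′ on the plus strand with the motif in capitals. Cish held 2 copies at its start site (chr9:107296654-107296683). Igfals held 1 copy in the windows of each of 2 start sites (chr17:24877597-24877626 and chr17:24878162-24878191).
Cish: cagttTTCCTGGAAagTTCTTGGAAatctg
Igfals, first site: cgatctataatTTCTCAGAAaagaggctga
Igfals, second site: tctgccaggtgTTCCTAGAAgaggccctgg
A match to these letters is a description of the sequence. The libraries do not measure binding.

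Brain and liver differed strongly in the axis, in wild-type and knockout mice alike. Igf1, Igfals, Ghr, Igfbp2, Igfbp3, Cish and Stat5b were higher in liver, Igf1r was higher in brain, and Socs2 did not pass the test. In each genotype 7 of the 9 members were called lower in brain and 1 higher (edgeR quasi-likelihood test, Benjamini-Hochberg adjusted p under 0.05). Igfals is among the 7 and passed the filter on low counts through liver alone, which fixed its direction. Cish is among them too, and its wild-type call was lost under several settings and with any of 4 libraries left out, as given with its values. Over all genes tested, 78.6% were called in either direction in wild type (34.7% lower in brain, 43.9% higher) and 78.7% in the knockout (35.2% lower and 43.5% higher), so being called between the tissues is common. The median log2 difference was -2.99 over the 9 members in wild type and 0.21 over all 18850 genes tested there. Scaling by library totals in place of TMM moved that median to 1.05 (in the knockout from 0.21 to 1.07), and the tissue differences below shift up by about the same step under it. Under that scaling 11623 genes were called higher and 3999 lower in wild-type brain, against 8275 and 6542 by TMM. In a whole tissue, fewer cells that express a gene and less RNA per cell cannot be told apart.

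Within a tissue, levels of different genes were compared as TPM, which divides each count by the length of the gene's exons. In liver Igfbp2 led with 255 ± 78.5 TPM (SD, n = 6 libraries of both genotypes), followed by Igf1 with 120 ± 11.0 TPM and Ghr with 112 ± 18.6 TPM. The ranges of these neighbours overlapped. Igfals followed with 33.6 ± 5.47 TPM, Stat5b with 20.8 ± 2.52 TPM and Igfbp3 with 13.3 ± 3.75 TPM, each below the range of the gene before it. Cish with 7.14 ± 7.01 TPM, Socs2 with 2.46 ± 1.56 TPM and Igf1r with 0.895 ± 0.156 TPM closed the order, and each overlapped the gene before it.

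In brain the order was different. Igfbp2 with 25.8 ± 8.49 TPM and Igf1r with 23.3 ± 1.15 TPM stood first and overlapped, and Stat5b followed with 14.0 ± 2.99 TPM, below the range of Igf1r and partly overlapping that of Igfbp2. Socs2 with 6.25 ± 0.549 TPM and Igfbp3 with 5.69 ± 0.799 TPM overlapped each other, as did Igf1 with 3.36 ± 0.325 TPM and Ghr with 3.13 ± 0.293 TPM. Cish lay at 1.67 ± 0.295 TPM, clear of both neighbours, and Igfals at 0.0655 ± 0.102 TPM. The receptor gene Igf1r was thus last of 9 in liver and behind only Igfbp2 in brain, while Ghr, the gene for the growth hormone receptor, was behind only Igfbp2 and Igf1 in liver and ahead of only Cish and Igfals in brain. This order is for the length of all exons: divided by the longest annotated transcript, wild-type Ghr lay above Igf1 in liver (225 against 148 TPM) and in brain (5.81 against 4.32 TPM).

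**Figure D1:**
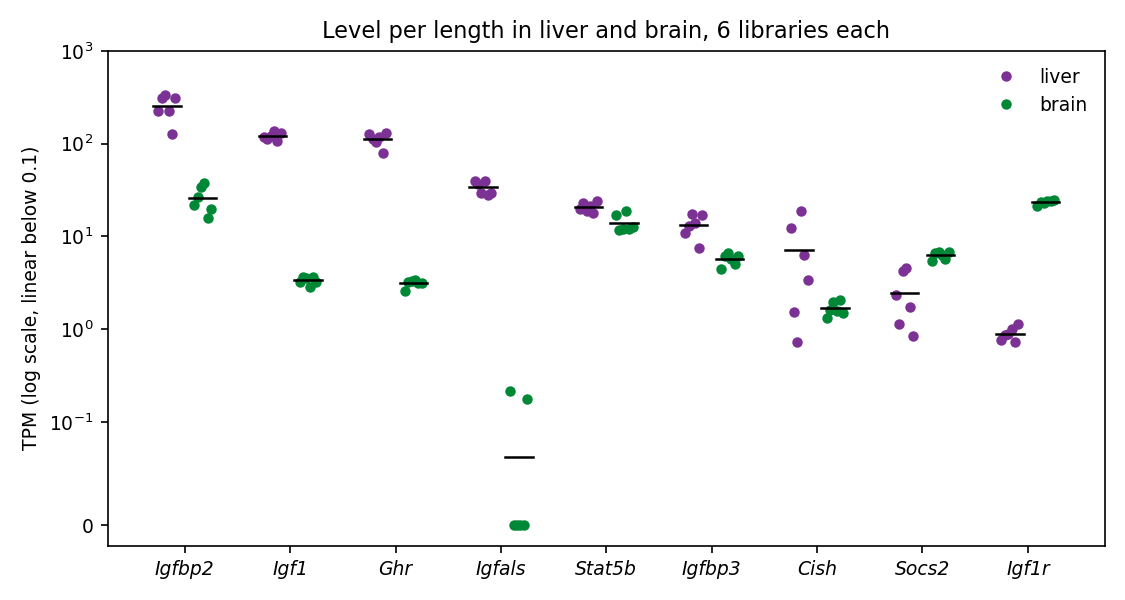
Level of the 9 genes in TPM (log axis, linear below 0.1) in liver and brain; each point is 1 library of either genotype (6 per tissue) and each bar is the mean of the 6. Igf1r is the lowest of the 9 in liver on average (0.895 TPM) and near the top in brain (23.3 TPM), and the Cish and Socs2 points spread most in liver.

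Igf1 encodes the circulating growth factor of the axis (chr10:87858265-87937042, GRCm38, plus strand). In wild-type liver its CPM, scaled by TMM within the tissue, was 708, 687 and 720 in replicates 1, 2 and 3, and in knockout liver it was 819, 730 and 721. The knockout livers all lay above the wild-type ones, by the small gap between 720 and 721 CPM. In brain the CPM was 13.6, 14.5 and 14.2 in wild type and 11.1, 14.9 and 13.9 in the knockout, with overlapping groups. Here and below, CPM of brain and liver are not on a common scale, and differences between tissues come from the fit to both. Between wild-type tissues the log2 difference (brain minus liver) was -6.49 ± 0.13 (SE; edgeR adjusted p = 6.62e-08), or 89.9-fold less in brain, and between knockout tissues it was -6.69 ± 0.19 (edgeR adjusted p = 1.49e-07).

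Ghr encodes the growth hormone receptor (chr15:3317760-3583492, minus strand). Its CPM was 705, 637 and 562 in wild-type liver and 649, 501 and 662 in knockout liver. The groups overlapped, and the lowest library was a knockout one. In brain the CPM was 9.93, 11.7 and 12.0 in wild-type mice, and knockout brains held 11.8, 11.6 and 12.7. The tissue difference on the log2 scale was -6.67 ± 0.17 in wild type (edgeR adjusted p = 7.17e-08), or 102-fold less in brain, and -6.51 ± 0.19 in the knockout. These values are close to those of Igf1.

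Igfals encodes the acid-labile subunit that stabilises IGF1 in blood (chr17:24865997-24882010, plus strand). Wild-type livers held 75.9, 72.1 and 55.2 CPM and knockout livers 76.5, 61.3 and 51.9 CPM, so the groups overlapped. In brain the gene had 5, 0 and 0 counts in wild type and 0, 0 and 4 counts in the knockout, which is at the floor. Against a floor of 3 counts per brain library, Igfals was at least 396-fold lower in wild-type brain than in wild-type liver and at least 337-fold lower in the knockout. The fitted tissue difference in wild type, -10.20 on the log2 scale, became -13.90 without brain wild-type replicate 1, the library with the 5 counts, so only the bound is read here.

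Igfbp2 and Igfbp3 encode IGF carriers. Igfbp2 (chr1:72824503-72852474, plus strand) had 250, 360 and 372 CPM in wild-type liver and 254, 161 and 318 CPM in knockout liver. It had 17.1, 19.4 and 25.4 CPM in wild-type brain and 26.9, 12.0 and 15.9 CPM in knockout brain. The groups overlapped in both tissues. The log2 difference between tissues was -4.84 ± 0.23 in wild type and -4.60 ± 0.40 in the knockout (edgeR adjusted p = 7.74e-07 and 2.48e-05). Igfbp3 (chr11:7206086-7213923, minus strand), the carrier in the large complex, had 20.8, 25.3 and 32.7 CPM in wild-type liver and 26.5, 16.4 and 30.03 CPM in knockout liver. In brain it had 6.03, 7.57 and 8.43 CPM in wild type and 6.96, 6.48 and 8.49 CPM in the knockout. Its groups also overlapped, and its tissue difference was smaller, -2.68 ± 0.21 in wild type and -2.59 ± 0.25 in the knockout.

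Igf1r encodes the receptor through which IGF1 acts (chr7:67952827-68233668, plus strand). It was the only member higher in brain. Wild-type brains held 154, 156 and 153 CPM and knockout brains 157, 165 and 181 CPM. On the separate scale of liver, wild-type livers held 7.83, 9.01 and 8.86 CPM and knockout livers 10.3, 8.38 and 10.7 CPM. Within brain the knockout libraries all lay above the wild-type ones, and within liver the groups overlapped. The log2 difference between tissues was 3.33 ± 0.11 in wild type (edgeR adjusted p = 1.22e-07), a 10.0-fold higher level in brain, and 3.24 ± 0.13 in the knockout.

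Stat5b encodes the main STAT protein of growth hormone signalling in liver (chr11:100780731-100850724, minus strand). It had 65.5, 79.7 and 62.5 CPM in wild-type liver and 71.9, 68.3 and 75.2 CPM in knockout liver. In brain it had 40.3, 26.0 and 26.9 CPM in wild type and 40.2, 27.6 and 30.6 CPM in the knockout, where replicate 1 of each genotype was the highest. The genotypes overlapped in both tissues, and the tissue difference was -2.004 ± 0.20 on the log2 scale in wild type and -1.99 ± 0.16 in the knockout. Stat5b lies beside its near-identical paralogue Stat5a, and its deposited counts were not whole numbers in any of the 12 libraries, while the sum of the 2 genes was whole in 12 of 12 to within 0.011. For example, liver wild-type replicate 1 had 1565.76 counts for Stat5b and 369.24 for Stat5a, which sum to 1935. The split between the paralogues is therefore uncertain. The summed pair, a check chosen after seeing the data, gave a wild-type tissue difference of -2.18 on the log2 scale.

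**Figure D2:**
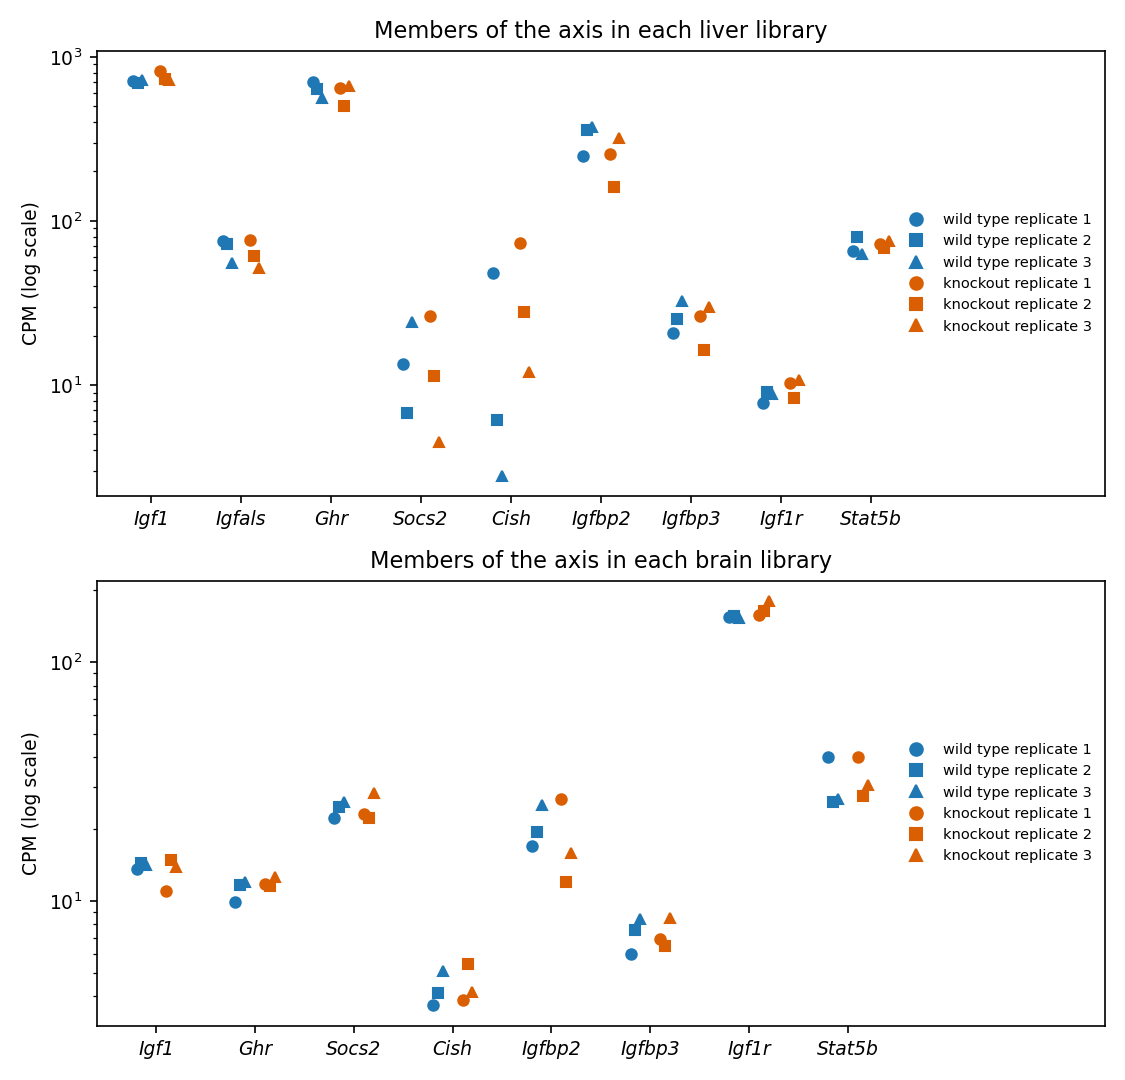
CPM (TMM within tissue, log axis) in each liver library (upper panel, 9 genes) and each brain library (lower panel, 8 genes, without Igfals); colour marks the genotype and shape the replicate number, and the panels have different vertical ranges. Across livers Cish runs from 2.81 to 72.9 CPM and Socs2 from 4.50 to 26.3 CPM, the widest ranges of the 9 genes there on the log axis.

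The 2 feedback inhibitors were the least settled members in liver. Cish encodes an SH2 protein induced by STAT5 (chr9:107296026-107302784, plus strand). Wild-type livers held 48.1, 6.08 and 2.81 CPM of it and knockout livers 72.9, 28.1 and 12.0 CPM, with overlapping groups. That is a 25.9-fold range over 6 livers, from 72 counts to 1914 counts. In brain Cish was even, at 3.67, 4.12 and 5.12 CPM in wild type and 3.87, 5.48 and 4.18 CPM in the knockout. Exons of Cish overlap Gm17040 and Gm17041 on the opposite strand, and whether the counting used strand is not given in the sources used here.

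Socs2 encodes the suppressor that limits body growth (chr10:95385362-95417180, minus strand). It had 13.4, 6.75 and 24.1 CPM in wild-type liver and 26.3, 11.4 and 4.50 CPM in knockout liver, a 5.84-fold range with overlapping groups. Brain libraries were close to each other, at 22.3, 24.9 and 26.1 CPM in wild type and 23.3, 22.4 and 28.3 CPM in the knockout. Socs2 was lowest in a different liver than Cish: knockout replicate 3 held the least Socs2, and wild-type replicate 3 held the least Cish together with the second-highest Socs2 level.

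Set against all genes, the within-group SD of log2(CPM + 1) in liver was 1.62 for Cish, and 0.150% of the 15329 genes tested there had a larger one. It was 1.01 for Socs2, with 0.802% of genes larger, against a median of 0.161. Igf1 was at the other end with 0.0755, a value that 89.1% of genes exceeded. In brain Cish had an SD of 0.208 and Socs2 one of 0.145, near the median of 0.197 over the 18075 genes tested. The most variable member in brain was Igfbp2, with 0.442, and 11.0% of genes had a larger SD.

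The spread of Cish set how firmly its tissue difference could be read. In wild type it was -2.99 ± 0.99 on the log2 scale (edgeR adjusted p = 0.0245), and it shrank to -0.91 (edgeR adjusted p = 0.0608) without liver wild-type replicate 1, the library with 48.1 CPM. Over the alternative settings the adjusted p ran from 0.0101 to 0.129, and the call was lost under library totals, with no filter on low counts, and when any 1 of the 3 wild-type brains was left out (differences of -2.91, -3.02 and -3.16 without replicates 1, 2 and 3, edgeR adjusted p = 0.0947, 0.130 and 0.0728). The knockout tissues differed by -3.93 ± 0.67 (edgeR adjusted p = 0.00102), or -3.01 without liver knockout replicate 1, and this call held with each library left out. For Socs2 the tissue difference was -0.12 ± 0.39 in wild type (edgeR adjusted p = 0.794, 95% interval -1.04 to 0.80) and -0.07 ± 0.55 in the knockout (edgeR adjusted p = 0.917, 95% interval -1.36 to 1.22). Its direction turned under library totals, at 0.71 and 0.81.

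The genes whose log2(CPM + 1) followed Cish most closely over the 6 livers, among 7595 genes with a mean of at least 10 CPM, were Onecut1, Serpina4-ps1 and Foxq1. Closeness was the root-mean-square difference after each gene was centred on its own mean, which was 0.202 for Onecut1, 0.624 for Serpina4-ps1 and 0.635 for Foxq1, against 1.51 for the spread of Cish itself. Onecut1, a liver transcription factor, had 222, 22.0 and 15.3 CPM in wild type and 311, 149 and 58.4 CPM in the knockout. Its order over the 6 livers was that of Cish, with wild-type replicates 2 and 3 lowest. Serpina4-ps1 had 92.2, 40.7 and 22.6 CPM in wild type and 220, 125 and 32.8 CPM in the knockout. Foxq1, a forkhead transcription factor, had 55.4, 30.6 and 9.67 CPM in wild type and 118, 73.4 and 21.3 CPM in the knockout. These genes were picked for their likeness, so it is a description without a test.

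**Figure D3:**
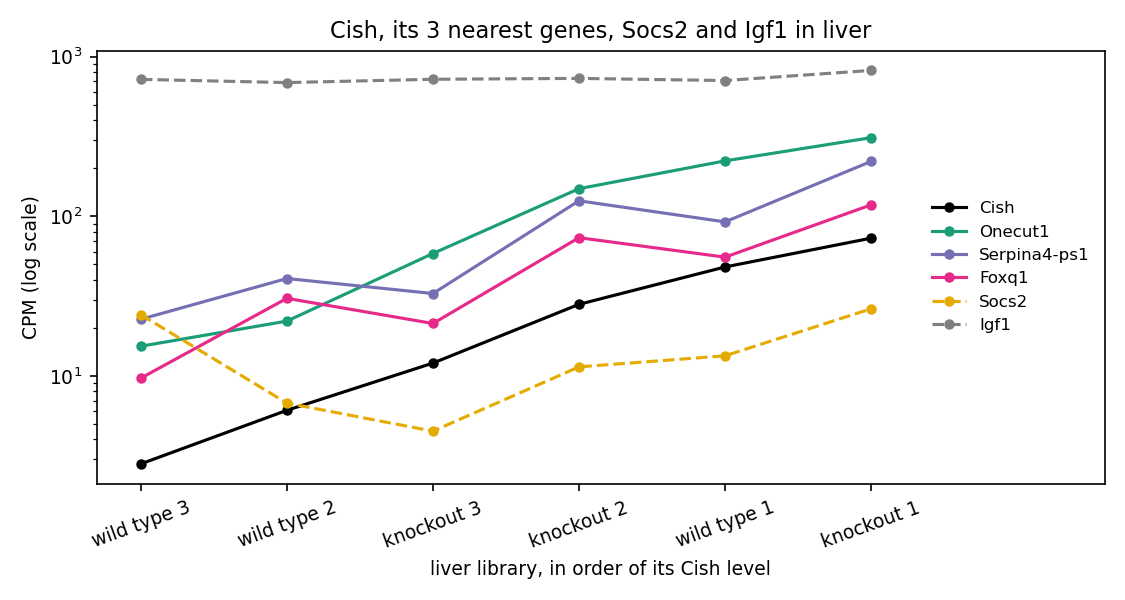
CPM (log axis) of Cish, the 3 genes closest to it, Socs2 and Igf1 in the 6 liver libraries, which are placed in the order of their Cish level; lines join the points of a gene. Onecut1 follows the order of Cish in all 6 livers, Socs2 departs from it in wild-type replicate 3 (24.1 CPM against 2.81 CPM of Cish), and Igf1 is nearly level (687 to 819 CPM).

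In brain the same measure for Igfbp2, over 10341 genes, gave Ace (0.179), Gpr153 (0.186) and Arhgap27 (0.213), against 0.378 for Igfbp2 itself. The summed level of 5 choroid plexus markers in brain was 241, 4.77 and 460 CPM in wild type and 632, 8.13 and 11.6 CPM in the knockout. The 2 brains with the most Igfbp2, knockout replicate 1 and wild-type replicate 3, also had the 2 highest choroid plexus sums. The other brains did not follow that order: wild-type replicate 2, with the lowest sum, held more Igfbp2 (19.4 CPM) than wild-type replicate 1 (17.1 CPM), with a sum of 241 CPM. The part of that tissue in the Igfbp2 values was not tested.

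Loss of Vaultrc5 left no called change in the axis. In liver none of the 9 members passed the test between knockout and wild type, and the edgeR quasi-likelihood test called 0% of all 15329 genes. The lowest edgeR adjusted p was 0.333. Vaultrc5 itself, with 33, 39 and 48 counts in wild-type livers and 0 in each knockout liver, was thus not called by edgeR either. The lack of a call therefore does not show that a gene is unchanged. At an unadjusted p under 0.05 edgeR found 536 genes (3.50%), none of them a member, and DESeq2 called 10 genes, none of them a member. Whether replicate numbers pair the liver libraries could not be decided by the correlation check. With the number as a block edgeR called 2 genes (0.0130%), neither of them a member. The median log2 difference over the 9 members was -0.05, against 0.01 over all genes.

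In liver the members other than Cish and Socs2 had narrower intervals than these, and among them the Igfbp2 and Igfbp3 intervals were the widest. The log2 difference (knockout minus wild type) was 0.11 ± 0.11 for Igf1 (SE; 95% interval -0.15 to 0.37), -0.06 ± 0.15 for Ghr (-0.42 to 0.29) and 0.06 ± 0.11 for Stat5b (-0.18 to 0.31). For Igf1 the interval reaches from 0.903 to 1.29 times the wild-type level. It was -0.09 ± 0.18 for Igfals (-0.50 to 0.32), 0.20 ± 0.13 for Igf1r (-0.11 to 0.51), -0.10 ± 0.26 for Igfbp3 (-0.74 to 0.53) and -0.41 ± 0.27 for Igfbp2 (-1.05 to 0.23). The Igfbp2 difference ran from -0.64 without knockout replicate 3 to -0.19 without knockout replicate 2. The adjusted p was 0.992 or above for each by edgeR. Non-overlapping ranges were seen in liver for 1 member, Igf1, and for 9.86% of all genes (4.31% with the knockout higher, 5.55% lower).

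The feedback inhibitors had wide intervals. Cish differed by 1.00 ± 1.27 (95% interval -2.29 to 4.29, edgeR adjusted p = 0.992). Socs2 differed by -0.05 ± 0.77 (-2.004 to 1.90, edgeR adjusted p = 0.999). Without a block on the replicate number these intervals leave room for a change of several fold. Within same-numbered pairs the knockout liver held 1.52, 4.61 and 4.28 times the Cish level of the wild-type one, and 1.97, 1.69 and 0.186 times the Socs2 level. With the number as a block the Cish difference was 1.53 ± 0.47 (edgeR unadjusted p = 0.0501, adjusted p = 0.775), higher in 3 of 3 pairs and not called. Leaving out 1 library moved the Cish difference between 0.08 (without liver knockout replicate 1) and 3.09 (without liver wild-type replicate 1), and the lowest adjusted p of these fits was 0.834. The summed level of 5 Kupffer cell markers was 102, 138 and 121 CPM in wild-type liver and 139, 262 and 113 CPM in knockout liver, and its part in these values was not tested.

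In brain 8 of the 9 members passed the filter on low counts, and Igfals did not. None of the 8 was called between knockout and wild type, and edgeR called 0% of all 18075 genes. At an unadjusted p under 0.05 it found 0.675% of genes, none of them a member. DESeq2 called none at the threshold, and neither did edgeR with the replicate number as a block. The log2 difference was -0.09 ± 0.14 for Igf1 (95% interval -0.42 to 0.25), 0.10 ± 0.13 for Ghr (-0.21 to 0.40), 0.12 ± 0.09 for Igf1r (-0.09 to 0.33) and 0.01 ± 0.13 for Socs2 (-0.29 to 0.31). The intervals of Cish (0.07 ± 0.22, -0.46 to 0.60), Stat5b (0.08 ± 0.22, -0.44 to 0.60), Igfbp3 (-0.01 ± 0.19, -0.46 to 0.44) and Igfbp2 (-0.18 ± 0.31, -0.91 to 0.56) were wider. Igf1r, the member whose groups did not overlap, lies among 4.20% of genes with that pattern (1.76% with the knockout higher, 2.44% lower).

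The effect of the knockout was not shown to differ between the tissues for any of the 8 members that passed the filter in both; Igfals, near 0 in brain, allows no such comparison. The interaction test called 0% of 20141 genes by edgeR (2.43% at an unadjusted p under 0.05, none of them a member), and DESeq2 called 1 gene, which was no member. The difference of the effects, liver minus brain, was 0.18 ± 0.17 on the log2 scale for Igf1 (edgeR unadjusted p = 0.323), the smallest p among the members. For Cish it was 0.93 ± 1.32, from -0.0224 without liver knockout replicate 1 to 3.02 without liver wild-type replicate 1.

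**Figure D4:**
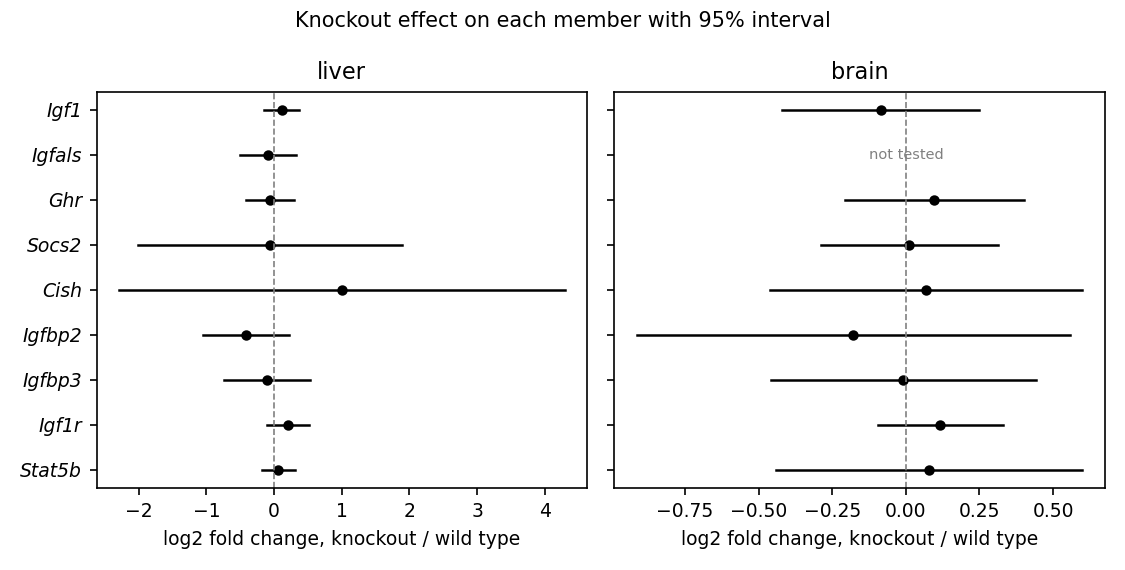
Log2 fold change of knockout against wild type for each member in liver and in brain; points are edgeR estimates, lines 95% intervals, the dashed line marks 0, and the panels have different horizontal ranges. All intervals include 0, Cish and Socs2 in liver have the widest, and Igfals was not tested in brain.

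Other genes of the pathway were counted from lists by role, and no gene of any list was called between knockout and wild type in either tissue or in the interaction. Among hormones and receptors upstream of growth hormone, 1 of 9 was tested in liver, the somatostatin receptor gene Sstr2 (log2 difference -0.27 ± 0.55), and 3 of 9 in brain, where Sstr2 had the smallest p (0.08 ± 0.27). Gh itself had 131, 0 and 32 counts in wild-type brain and 122, 2 and 0 counts in knockout brain. Gh was thus highest in replicate 1 of each genotype, and it is known as a pituitary product. Of the other ligands and receptors 4 of 7 were tested in each tissue, and the prolactin receptor gene Prlr had the smallest p. It differed by -0.36 ± 0.22 in liver (-0.54 to -0.14 with 1 library left out) and -0.75 ± 1.25 in brain.

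All 8 genes of JAK and STAT signalling were tested in both tissues. Stat3 had the smallest p in liver (0.33 ± 0.19, from 0.11 to 0.49 with 1 library left out). In brain the phosphatase gene Ptpn1 had it (0.10 ± 0.11, from 0.00807 to 0.19). Of the other SOCS genes, 5 of 6 were tested in liver, where Socs3 had 14.0, 7.97 and 3.08 CPM in wild type and 24.7, 22.2 and 4.63 CPM in the knockout (1.06 ± 0.80, edgeR adjusted p = 0.992; 1.65 without liver wild-type replicate 1). Both Socs3 groups were lowest in replicate 3. All 6 were tested in brain, where Socs1 had the smallest p (0.56 ± 0.51, with 0.24 when knockout replicate 2 was left out and 1.09 when wild-type replicate 1 was). Of the other IGF binding proteins and the proteins that cleave or guard them, 6 of 9 were tested in liver and 8 of 9 in brain. Igfbp5 led in liver (-0.41 ± 0.24, from -0.62 to -0.17 with 1 library left out). Igfbp7 led in brain (0.27 ± 0.20, from 0.17 to 0.43).

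Below IGF1R, 14 of 15 genes were tested in each tissue. The median log2 difference over them was 0.05 in liver and 0.01 in brain. In brain the adaptor gene Grb10 had the smallest p (-0.22 ± 0.15, or -0.0343 without brain wild-type replicate 3).

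Growth hormone pulses set the sex bias of many liver genes, so lists of those were included. All 12 male-biased genes were tested in liver and had a median log2 difference of 0.31, with 8 positive and 4 negative and none called. Cyp2d9 had the smallest p, at -0.23 ± 0.13. In brain 2 of the 12 were tested, led by Cyp7b1 (0.09 ± 0.18). Bcl6, which encodes a transcriptional repressor and is itself repressed by STAT5, had 18.7, 93.7 and 87.1 CPM in wild-type liver and 34.9, 41.8 and 24.6 CPM in knockout liver. Bcl6 was high in the wild-type livers with little Cish, replicates 2 and 3, but among knockout livers the one with the least Cish, replicate 3, also had the least Bcl6. Bcl6 was named after its values were seen. Of the 11 female-biased genes 2 were tested in liver, 1 positive and 1 negative, with a median log2 difference of 0.04. Cux2 was the negative one, at -1.29 ± 0.59 (edgeR adjusted p = 0.992), or -0.61 without liver wild-type replicate 3. In brain Cux2 alone was tested (0.10 ± 0.27).

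Between tissues every list held called genes, where 78.6% of all genes tested were called in wild type and 78.7% in the knockout. A gene that passed the filter on low counts through 1 tissue alone, as Sst, Pappa2 and Igfbp1 did, had its direction fixed by that. Upstream, Sstr2 was higher in brain by 2.61 ± 0.37 on the log2 scale in wild type. Sst, which encodes somatostatin, was higher by 366-fold against the floor of 3 counts per liver library, scaled by library totals. That scaling raises brain over liver, so by TMM the bound would be lower. Of the 4 tested ligand and receptor genes 1 was higher in brain and 3 lower in each genotype. The fetal growth factor gene Igf2 was higher in brain by 6.18 ± 0.22, and the insulin receptor gene Insr was lower, at -2.14 ± 0.12. Prlr was lower as well, at -4.69 ± 0.85, or -6.24 without brain wild-type replicate 3.

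Of the 8 JAK and STAT genes 1 was higher in brain and 4 lower in each genotype, with Ptpn11 at 0.43 ± 0.12 (not called without brain wild-type replicate 3, 0.30 with edgeR adjusted p = 0.0661, or without liver wild-type replicate 1, 0.37 with edgeR adjusted p = 0.0598), Stat5a at -3.50 ± 0.23 and Ptpn6 at -3.32 ± 0.17 in wild type. Stat5a and Stat5b thus shared the direction towards liver. Of the 6 other SOCS genes 2 were higher (Socs5, 2.76 ± 0.13, and Socs7, 1.85 ± 0.13) and 2 lower (Socs3, -2.68 ± 0.54, and Socs4, -1.14 ± 0.10). Socs4 was no longer called in the knockout under library totals (-0.25, edgeR adjusted p = 0.0777).

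Of the 9 genes for other IGF binding proteins and their proteolysis, 5 were higher and 3 lower in wild-type brain, and 6 and 3 in the knockout, with Pappa2 among the higher and Igfbp1 among the lower ones. Igfbp4 was lower in brain at -5.53 ± 0.25, and Igfbp1 was at least 360-fold lower against the floor. Pappa2, a protease gene, had 1.83, 7.79 and 3.60 CPM in wild-type brain. By library totals it was 36.8-fold higher there than the floor in liver, a bound that would be lower by TMM. Replicate 2 was the highest and weighs most in that bound, and without it the fitted log2 difference went from 5.82 to 5.06. Stc1, whose protein inhibits such proteases, was higher by 3.57 ± 0.54 (4.26 without liver wild-type replicate 3). Among the 14 tested genes below IGF1R, 4 were higher and 6 lower in wild-type brain, with Grb10 at 1.90 ± 0.18, Shc1 at -3.04 ± 0.13 and Grb14 at -2.31 ± 0.13. The male-biased genes are high in liver by choice and only 2 of the 12 passed the filter within brain, so their lower level there is a description: Mup20 was lower by at least 29868-fold and Cyp2d9 by at least 6064-fold, and Cux2 was higher in brain by 5.74 ± 0.49 (6.41 without liver wild-type replicate 3).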

How the data were processed

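The authors deposited expected counts per gene for 12 total RNA libraries, neither normalized nor pooled; between 5.06% and 5.71% of values per library were not whole. Per the submitters' processing notes the tools were cutadapt and STAR and the build mm10; the counting tool, its use of strand and tool versions are not given in the sources used here. Per the labels' protocols the libraries were stranded, depleted of ribosomal RNA and read from a single end.

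Counts were rounded and tested with edgeR 4.0.16 by quasi-likelihood (R 4.3.3, limma 3.58.1; TMM; filterByExpr by group with minimum count 10 and minimum total 15; robust; Benjamini-Hochberg adjustment over all genes tested, threshold 0.05). Knockout and tissue comparisons used their own 6 libraries and the interaction all 12. The SE is the size of the log2 fold change over the square root of F, and 95% intervals use the t quantile at the fit's degrees of freedom. CPM use TMM within tissue, so CPM of brain and liver are not on a common scale. TPM divide by exon length in GENCODE on GRCm38, which also gives the coordinates. A floor of 3 counts per library was used for folds against groups near 0. Floors cover counting error only. These folds are scaled by library totals in place of TMM, which raises brain over liver. The bound is thus higher than by TMM for genes higher in brain, and lower for genes higher in liver. Replicates differed by 27.2 to 228 times the degrees of freedom in a chi-square test, more than sequencing the same library again would give. Libraries made again from the same RNA or mouse could also differ this much, so the test cannot exclude them. The fit was also run on simulated counts, whose outcome is not given here.

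Groups and replicate numbers came from titles and genotype labels. Deviations from the group means correlated between same-numbered wild-type and knockout livers at 0.33, 0.36 and 0.40. In brain the values were 0.65, 0.62 and -0.02, and between tissues they were 0.01 to 0.06. Only same-numbered libraries were compared, so this check cannot decide in which tissue the numbers pair libraries. With the number as a block the common dispersion fell from 0.0434 to 0.0230 in liver. In brain it fell from 0.0587 to 0.0184. Alternatives were DESeq2 1.42.0 and its size factors, library totals, no filter, a replicate block, all libraries in one fit, other lengths and each library left out.

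The text names all members. Of each list it names the gene with the smallest p in each knockout comparison, and up to 2 called genes per direction between tissues; by likeness it names the 3 genes closest to the most variable member per tissue. The values of 1 list gene are not reported here. The members and lists were chosen with earlier results of these data known.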

Additional observations from a re-analysis of the deposited data

How the results depend on the processing

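The number of genes called between knockout and wild type in liver was 0 by the main setting, 10 by DESeq2, 4 with no filter on low counts, 2 with the replicate block and 0 to 1 with 1 library left out (1 without liver wild-type replicate 2); for the interaction it was 0, 1 by DESeq2 and 2 with the block. Whether the numbers pair libraries was not decided by the correlation check. In liver the block changed no other call. Between tissues same-numbered libraries hardly correlated, and the block put wild-type Cish at -2.01 (edgeR adjusted p = 0.0781). It put Socs2 at 0.0426 in wild type and 0.24 in the knockout. Library totals gave Cish -2.15 (adjusted p = 0.0701) in wild type, Socs2 0.71 and 0.81 in wild type and knockout, and -0.000771 for Socs2 between genotypes in brain; no filter gave Cish -2.97 (adjusted p = 0.129); all 12 libraries in one fit gave Igfbp3 0.00375 in brain. Log2 differences that turned sign with 1 library left out, none of them called, ranged in liver from -0.15 to 0.0537 for Ghr, -0.25 to 0.0352 for Igfals, -0.28 to 0.11 for Igfbp3, -0.89 to 0.50 for Socs2, -1.10 to 0.0739 for Sstr2 and -0.00854 to 0.17 for Stat5b; in brain from -0.0823 to 0.21 for Cish, -0.12 to 0.42 for Cux2, -0.0382 to 0.21 for Cyp7b1, -0.16 to 0.0280 for Igf1, -0.57 to 0.0624 for Igfbp2, -0.13 to 0.10 for Igfbp3, -2.90 to 0.75 for Prlr, -0.0943 to 0.0893 for Socs2, -0.15 to 0.36 for Sstr2 and -0.0948 to 0.31 for Stat5b. The same ranges for the interaction were -0.0224 to 3.02 for Cish, -3.53 to 3.55 for Igfals, -0.47 to 0.14 for Igfbp2, -0.28 to 0.10 for Igfbp3, -0.93 to 0.48 for Socs2 and -0.22 to 0.14 for Stat5b, and between tissues -0.49 to 0.42 for Socs2 in wild type and -0.52 to 0.77 in the knockout. Dividing by the longest transcript gave wild-type liver levels of 148 TPM for Igf1, 225 TPM for Ghr, 5.19 TPM for Socs2, 371 TPM for Igfbp2 and 1.11 TPM for Igf1r, and wild-type brain levels of 4.32 TPM for Igf1, 5.81 TPM for Ghr, 12.4 TPM for Socs2, 1.98 TPM for Cish, 34.1 TPM for Igfbp2 and 29.2 TPM for Igf1r. The cause of these changes was not tested. Igfals had 0 to 5 counts per brain library, which allow no comparison of genotypes.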
